A study of Lactuca sativa with 6 samples.

Results

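The primary wall of a growing leaf cell is a network of cellulose, xyloglucan and pectin, and cells enlarge when turgor stretches a wall that has been loosened. Expansins loosen the contacts between wall polysaccharides without cutting them and act best in acid walls, and xyloglucan endotransglucosylase/hydrolases (XTHs) cut xyloglucan chains and rejoin or hydrolyse them. In pectin, pectinesterases remove methyl groups from homogalacturonan, which can stiffen the gel with calcium or open it to polygalacturonases and pectate lyases, the enzymes that cut the backbone. Beta-galactosidases trim galactose from side chains of wall polymers. Lettuce genes of these classes were taken from the RNA-seq table of leaves overexpressing *LsAP2* by their Swiss-Prot descriptions. The words expansin, xyloglucan endotransglucosylase, polygalacturonase, pectinesterase, pectate lyase, endoglucanase, pectin acetylesterase and beta-galactosidase found 32 of the 2579 genes of the table. They were 7 expansins, 6 XTHs, 7 pectinesterases, 6 polygalacturonases, 5 pectate lyases and 1 beta-galactosidase, and no gene was described as an endoglucanase or a pectin acetylesterase.

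The samples were young leaves of 1-month-old lettuce plants of the cultivar S39, 3 libraries of *LsAP2*-OE plants and 3 of wild type (WT) plants. *LsAP2*-OE plants carry the coding sequence of *LsAP2* behind the cauliflower mosaic virus promoter that is active in most cell types, and WT plants carry no transgene. Neither the labels nor the methods name the *LsAP2*-OE line behind these libraries, so what is particular to a line and what follows overexpression cannot be told apart. *LsAP2* itself (Lsat_1_v5_gn_3_89681) had values of 214, 209 and 224 in the *LsAP2*-OE libraries, against 25.3, 27.9 and 30.5 in the WT libraries, and the value does not separate transgene from native gene. Each value is a normalized expression value of the authors, whose kind of normalization is not named, so depth is unknown. Whether values are scaled by gene length is not known either, so a larger value of one gene than of another is not read as a higher level, and sums and shares over genes describe the deposited values only. The values of all listed genes summed to 103060 to 108937 in the *LsAP2*-OE libraries and to 97790 to 112997 in the WT libraries, and 15 to 33 genes were listed at 0 in a library. A Rubisco small chain gene (Lsat_1_v5_gn_2_79481), a marker of leaf tissue, had a mean value of 6470 over the libraries. This gene gave 8.498% of the summed value of all listed genes in *LsAP2*-OE and 3.87% in WT. Its value was thus not equal in the groups, and the mean shows only that leaf RNA was present.

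Only genes that the authors had called different between these same libraries are listed, with an FDR below 0.01 and at least a 2-fold difference. Wall genes that they did not call were not analysed here. Here limma was run on log2(value + 0.1) of every gene in the table, p-values were adjusted by Benjamini-Hochberg over all of them, and a gene was called at an adjusted p below 0.01. At this threshold 98.7% of the table passed, 59.1% as higher and 39.6% as lower in *LsAP2*-OE. A call of a single gene therefore repeats the selection of the table and is not independent evidence of a difference. In these bulk leaves, fewer cells of a type and less RNA per cell cannot be told apart.

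Most wall loosening and pectin genes of the table were higher in *LsAP2*-OE leaves. Of the 32 genes, 25 (78.1%) were higher and 7 were lower, beside 59.1% and 39.6% of the whole table. None failed the test, which 98.7% of the table passed. Their median log2 fold change was 1.41, beside 1.03 over the whole table, and the 25 higher genes ranged from 0.94 to 4.49. With a fold change of at least 2 on the same scale in addition, 23 genes were higher, where 51.7% of the table was, and 7 were lower, where 39.5% of the table was. In each of the 32 genes the values of the groups did not overlap, which 99.4% of the table shared. The replicates were close together, with a median coefficient of variation of 6.19% in *LsAP2*-OE and 9.55% in WT libraries, beside 10.005% and 13.048% over the table. The summed value of the 32 genes was 865, 917 and 869 in the *LsAP2*-OE libraries, against 313, 319 and 315 in the WT libraries. The sum was thus 2.80-fold higher in *LsAP2*-OE. The sum over all listed genes was 1.01-fold that of WT, but rises and falls offset each other in it. Histones and other genes of dividing cells, 90 in number, had a mean sum of 16298 in *LsAP2*-OE and of 47919 in WT.

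**Figure D1:**
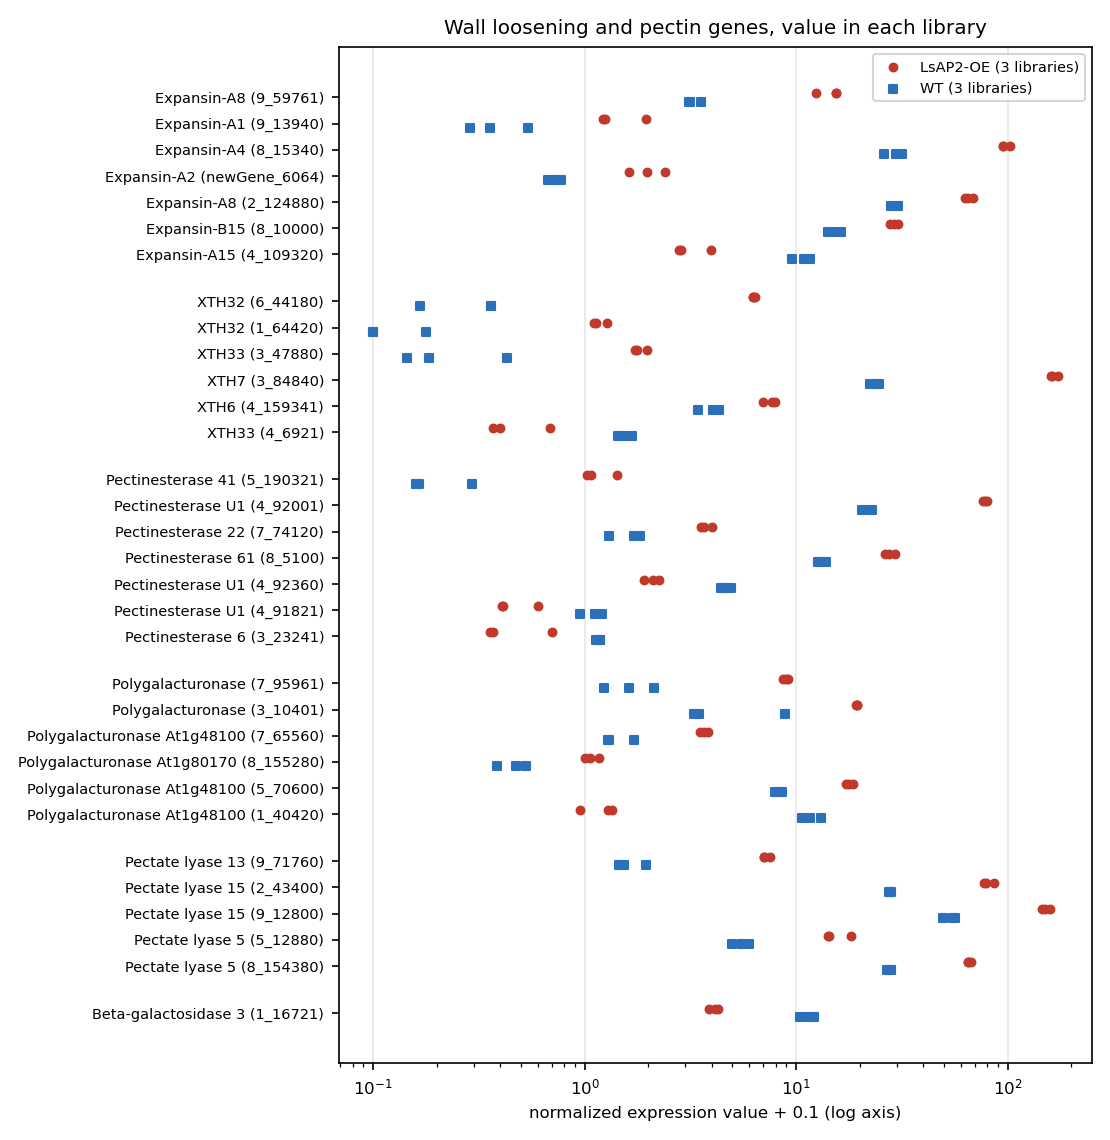
Normalized expression value plus 0.1 (log axis) of each of the 32 genes, 1 row per gene with its Swiss-Prot name and the end of its ID, in the 3 *LsAP2*-OE libraries (red circles) and the 3 WT libraries (blue squares). The groups do not overlap in any row, and 25 rows have the *LsAP2*-OE libraries on the right.

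Expansins were higher in *LsAP2*-OE leaves in 6 of 7 cases, beside 59.1% of the whole table. *Expansin-A4* (Lsat_1_v5_gn_8_15340), an alpha-expansin, had values of 95.0, 103 and 95.0 in the *LsAP2*-OE libraries, against 31.6, 26.0 and 29.6 in the WT libraries. Every *LsAP2*-OE library was thus above every WT library, and the gene rose by 1.75 on the log2 scale (limma adjusted p = 3.00e-07, standard error 0.082). Both *Expansin-A8* genes rose, but by unequal amounts. The first (Lsat_1_v5_gn_2_124880) had values of 64.5, 68.7 and 62.7 in *LsAP2*-OE and of 30.2, 27.9 and 29.9 in WT, a log2 fold change of 1.15 (standard error 0.065). The second (Lsat_1_v5_gn_9_59761) had values of 15.4, 15.3 and 12.3 in *LsAP2*-OE and of 3.01, 3.04 and 3.44 in WT, a log2 fold change of 2.14 (standard error 0.12), which was the largest rise of the class on this scale. The second gene gave 16.4% to 19.3% of the summed value of the pair in *LsAP2*-OE libraries and 9.05% to 10.3% in WT libraries. *Expansin-A1* (Lsat_1_v5_gn_9_13940) had low values of 1.14, 1.86 and 1.13 in *LsAP2*-OE, against 0.441, 0.258 and 0.187 in WT. Its log2 fold change was 1.91, and 0.87 with a pseudocount of 1 in place of 0.1. *Expansin-A2* (Lactuca_sativa_newGene_6064) and *Expansin-B15* (Lsat_1_v5_gn_8_10000), the only beta-expansin of the table, had log2 fold changes of 1.46 and 0.94.

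The single expansin that fell was *Expansin-A15* (Lsat_1_v5_gn_4_109320). Its values were 2.74, 2.69 and 3.86 in the *LsAP2*-OE libraries, against 10.8, 11.5 and 9.47 in the WT libraries. The highest *LsAP2*-OE library was thus well below the lowest WT library, with a log2 fold change of −1.76 (limma adjusted p = 9.92e-06, standard error 0.16). The summed value of the class was 213 ± 8.78 in *LsAP2*-OE and 88.2 ± 4.35 in WT (SD, n = 3), a ratio of 2.41. *Expansin-A4* gave 45.9% of this sum in *LsAP2*-OE and 32.95% in WT.

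The XTHs held the largest rises of the 32 genes on this scale. The gene described as *XTH7* (Lsat_1_v5_gn_3_84840) had values of 161, 172 and 161 in the *LsAP2*-OE libraries, against 24.7, 22.2 and 23.9 in the WT libraries. It was 6.98-fold higher by the ratio of means, and its log2 fold change of 2.80 (limma adjusted p = 1.80e-08, standard error 0.065) had the smallest adjusted p of the 32 genes. This gene alone gave 90.7% of the summed value of the class in *LsAP2*-OE and 80.7% in WT. The sum was 182 ± 6.49 in *LsAP2*-OE and 29.3 ± 1.07 in WT (SD, n = 3), a ratio of 6.21, and the log2 ratio of 2.63 was 1.57 without *XTH7*. *XTH6* (Lsat_1_v5_gn_4_159341) rose far less, with values of 7.58, 6.88 and 7.85 in *LsAP2*-OE and of 3.96, 4.20 and 3.34 in WT, a log2 fold change of 0.94 (standard error 0.13).

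Both genes described as *XTH32*, of a group of XTHs that in *Arabidopsis* includes xyloglucan hydrolases, were close to 0 in WT leaves. One (Lsat_1_v5_gn_6_44180) had values of 6.13, 6.28 and 6.15 in the *LsAP2*-OE libraries, against 0.261, 0.067 and 0.260 in the WT libraries. The other (Lsat_1_v5_gn_1_64420) had values of 1.18, 1.03 and 1.00 in *LsAP2*-OE and was listed at 0, 0 and 0.078 in WT. Their log2 fold changes of 4.49 and 3.27 rest on the pseudocount, and were 2.59 and 1.01 with a pseudocount of 1 and 5.12 and 5.71 with a pseudocount of 0.01. The order of the pair by fold change thus turned round with the pseudocount, while both were higher under each of them.

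A pair of *XTH33* genes moved in opposite directions. The first (Lsat_1_v5_gn_3_47880) had values of 1.64, 1.86 and 1.66 in *LsAP2*-OE, against 0.044, 0.084 and 0.328 in WT, a log2 fold change of 3.01 (standard error 0.38). The second (Lsat_1_v5_gn_4_6921), the only XTH that fell, had values of 0.268, 0.590 and 0.297 in *LsAP2*-OE, against 1.34, 1.58 and 1.42 in WT, a log2 fold change of −1.73 (limma adjusted p = 2.81e-04, standard error 0.27). The first gave 75.9% to 86.0% of the summed value of the pair in *LsAP2*-OE libraries and 3.20% to 18.8% in WT libraries. The sum of the pair itself was 2.11 ± 0.302 in *LsAP2*-OE and 1.60 ± 0.187 in WT (SD, n = 3). Genes with 1 description could share reads if their sequences are alike, which was not tested, so the single values of *XTH33*, *Pectinesterase U1*, *Polygalacturonase At1g48100* and the other repeated descriptions are uncertain.

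**Figure D2:**
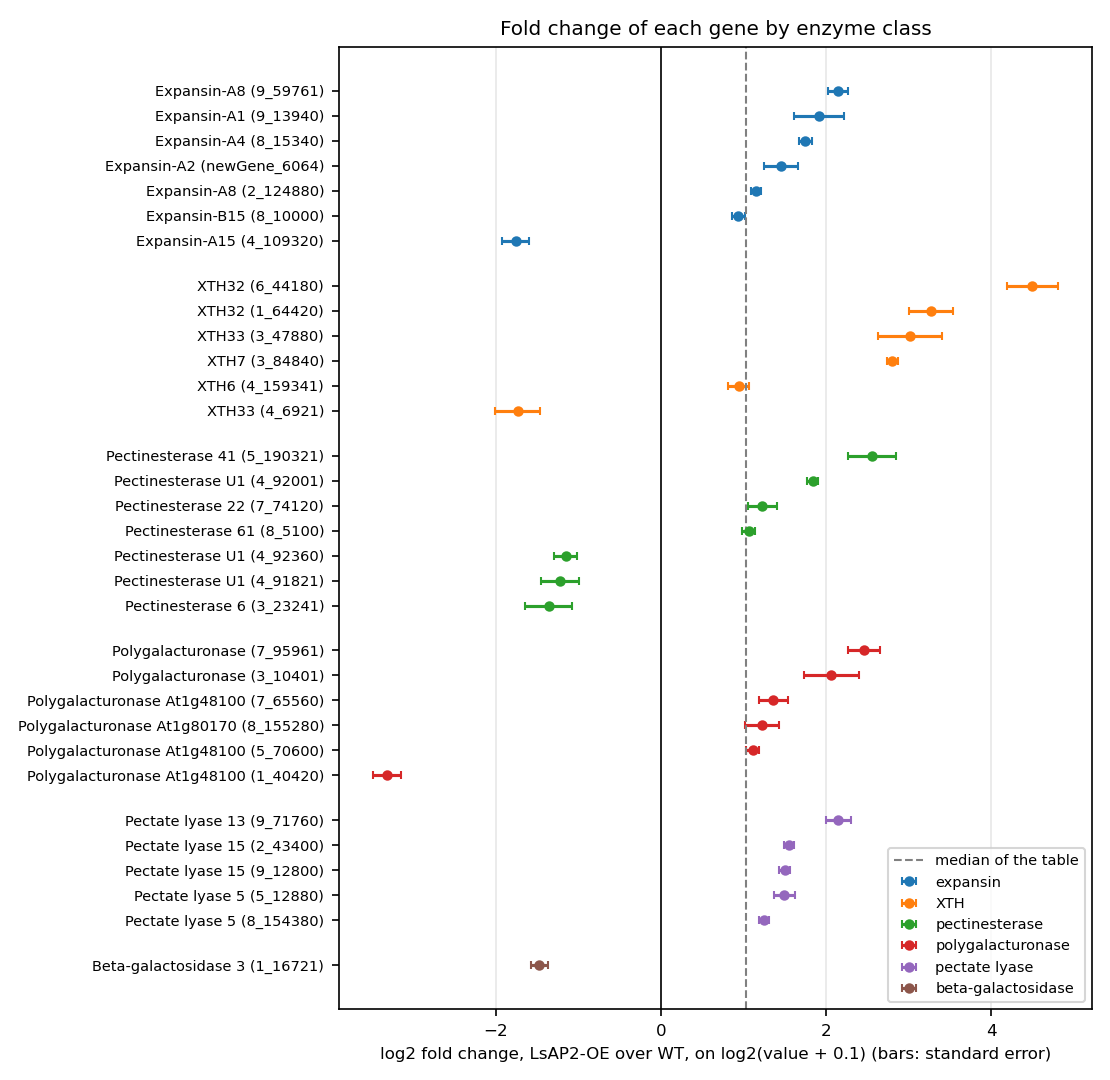
Log2 fold change of *LsAP2*-OE over WT (x axis, on the scale log2(value + 0.1)) of each of the 32 genes, with its standard error from limma as a bar and colors for the 6 enzyme classes. The dashed line is the median of the whole table, 1.03, and the 7 points left of 0 belong to every class but the pectate lyases.

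Of 7 pectinesterases, 4 (57.1%) were higher and 3 lower in *LsAP2*-OE, a share close to the 59.1% higher over the whole table. Both directions were found among the 3 genes described as *Pectinesterase U1*. The first of them (Lsat_1_v5_gn_4_92001) had values of 78.0, 76.7 and 79.8 in *LsAP2*-OE, against 22.6, 22.6 and 20.4 in WT, and rose by 1.84 on the log2 scale (limma adjusted p = 8.20e-08, standard error 0.065). The other two fell. Of these, Lsat_1_v5_gn_4_92360 had values of 1.81, 2.16 and 2.01 in *LsAP2*-OE and of 4.31, 4.49 and 4.83 in WT, a log2 fold change of −1.15 (standard error 0.14). Lsat_1_v5_gn_4_91821 had values of 0.307, 0.313 and 0.500 in *LsAP2*-OE and of 0.853, 1.02 and 1.11 in WT, a log2 fold change of −1.22 (standard error 0.23). The rising gene gave 96.9% to 97.4% of the sum of the 3 in *LsAP2*-OE libraries and 77.4% to 81.4% in WT libraries.

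Other pectinesterases with low values also moved in both directions. *Pectinesterase 41* (Lsat_1_v5_gn_5_190321) had values of 0.969, 0.927 and 1.32 in *LsAP2*-OE, against 0.060, 0.193 and 0.064 in WT, with a log2 fold change of 2.56 that was 0.90 with a pseudocount of 1. *Pectinesterase 6* (Lsat_1_v5_gn_3_23241), named after an *Arabidopsis* enzyme of guard cell walls and seed mucilage, fell, with values of 0.258, 0.603 and 0.270 in *LsAP2*-OE and of 1.08, 1.08 and 1.03 in WT. The library of *LsAP2*-OE replicate 2 stood above the other two but below all WT libraries. Its log2 fold change of −1.36 (standard error 0.29) had the largest adjusted p of the 32 genes, 0.00158 from limma (range over the alternatives 1.90e-04 to 0.00752). *Pectinesterase 61* (Lsat_1_v5_gn_8_5100) had values of 27.4, 29.2 and 26.3 in *LsAP2*-OE, against 13.2, 13.8 and 12.6 in WT, a log2 fold change of 1.06. *Pectinesterase 22* (Lsat_1_v5_gn_7_74120) rose by 1.23 on the log2 scale. The summed value of the class was 113 ± 0.938 in *LsAP2*-OE and 43.3 ± 1.37 in WT (SD, n = 3), a ratio of 2.62. The log2 ratio of 1.39 was 0.71 without the rising *Pectinesterase U1* gene, which gave 69.0% of the sum in *LsAP2*-OE and 50.5% in WT.

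Polygalacturonases were higher in 5 of 6 cases, beside 59.1% of the whole table, and the remaining gene had the largest fall of the 32 genes. A group of 3 was described as *Polygalacturonase At1g48100*, an *Arabidopsis* enzyme known as PGX3 that acts in cell expansion and stomatal movement. The one that fell (Lsat_1_v5_gn_1_40420) had values of 0.851, 1.20 and 1.25 in *LsAP2*-OE, against 10.6, 11.5 and 13.0 in WT, a log2 fold change of −3.31 (limma adjusted p = 4.62e-07, standard error 0.17). A second (Lsat_1_v5_gn_5_70600) had values of 18.5, 17.7 and 17.1 in *LsAP2*-OE and of 7.88, 8.21 and 8.47 in WT, and rose by 1.11 on the log2 scale (standard error 0.077). The third (Lsat_1_v5_gn_7_65560) rose as well, with values of 3.40, 3.72 and 3.56 in *LsAP2*-OE and of 1.21, 1.62 and 1.18 in WT. The sum of the 3 differed little, at 22.4 ± 0.434 in *LsAP2*-OE and 21.2 ± 1.49 in WT (SD, n = 3). Within it, the gene that fell gave 3.73% to 5.69% in *LsAP2*-OE libraries and 53.9% to 57.4% in WT libraries.

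**Figure D3:**
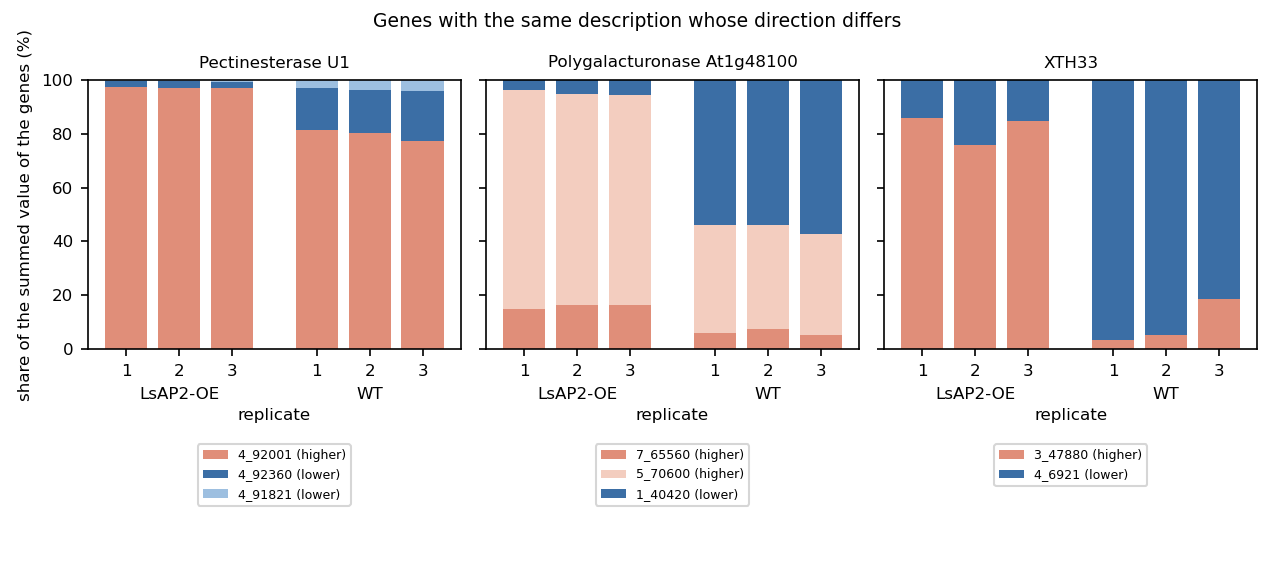
Share (%) of each gene in the summed value of the genes with the same Swiss-Prot description, for *Pectinesterase U1*, *Polygalacturonase At1g48100* and *XTH33*, with 1 bar per library and the ends of the gene IDs as labels. Genes that rose are in red shades and genes that fell in blue shades, and the blue share is smaller in all 3 *LsAP2*-OE libraries than in any WT library in each panel.

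Among the other polygalacturonases, the gene that the NR database describes as an exopolygalacturonase (Lsat_1_v5_gn_7_95961), an enzyme that trims chains from the end, had values of 9.06, 8.55 and 8.83 in *LsAP2*-OE, against 1.13, 2.03 and 1.52 in WT. Its log2 fold change was 2.46 (standard error 0.20). Another gene (Lsat_1_v5_gn_3_10401) had values of 19.3, 19.2 and 19.3 in *LsAP2*-OE and of 3.36, 8.71 and 3.18 in WT. The library of WT replicate 2 was far above the other two WT libraries, and the log2 fold change of 2.06 (standard error 0.34) was 2.52 without it. *Polygalacturonase At1g80170* (Lsat_1_v5_gn_8_155280) had low values of 0.957, 1.07 and 0.902 in *LsAP2*-OE, against 0.285, 0.376 and 0.428 in WT. Its adjusted p of 4.38e-04 from limma was among the 3 largest of the 32 genes (range over the alternatives 1.81e-04 to 0.00235). The summed value of the class was 51.5 ± 0.576 in *LsAP2*-OE and 28.2 ± 4.03 in WT (SD, n = 3), a ratio of 1.82.

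All 5 pectate lyases of the table were higher in *LsAP2*-OE, beside 59.1% of the whole table, with log2 fold changes of 1.25 to 2.15. Both *pectate lyase 15* genes had nearly equal changes. The first (Lsat_1_v5_gn_9_12800) had values of 145, 158 and 151 in *LsAP2*-OE, against 49.4, 56.3 and 54.9 in WT, a log2 fold change of 1.499 (standard error 0.070). The second (Lsat_1_v5_gn_2_43400) had values of 79.2, 86.3 and 77.6 in *LsAP2*-OE, against 27.2, 27.9 and 27.5 in WT, a log2 fold change of 1.55 (standard error 0.063). The first gave 64.7% to 66.0% of the sum of this pair in *LsAP2*-OE libraries and 64.5% to 66.8% in WT libraries. *Pectate lyase 13* (Lsat_1_v5_gn_9_71760), named after the *Arabidopsis* gene *PMR6*, whose loss makes plants resistant to powdery mildew, had values of 7.45, 6.98 and 6.96 in *LsAP2*-OE, against 1.84, 1.43 and 1.36 in WT, the largest rise of the class. Both *pectate lyase 5* genes (Lsat_1_v5_gn_8_154380 and Lsat_1_v5_gn_5_12880) rose, with log2 fold changes of 1.25 and 1.49. The summed value of the class was 320.4 ± 14.1 in *LsAP2*-OE and 116 ± 3.99 in WT (SD, n = 3), a ratio of 2.77.

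The only beta-galactosidase of the table, *beta-galactosidase 3* (Lsat_1_v5_gn_1_16721), was lower in *LsAP2*-OE. Its values were 4.17, 3.76 and 4.06 in the *LsAP2*-OE libraries, against 10.4, 11.4 and 12.1 in the WT libraries, a log2 fold change of −1.47 (limma adjusted p = 2.21e-06, standard error 0.10). Across classes, the 7 genes that fell together had a summed value of 11.3 ± 0.920 in *LsAP2*-OE and 41.7 ± 1.95 in WT (SD, n = 3). The 25 genes that rose had one of 872 ± 29.3 in *LsAP2*-OE and 274 ± 2.18 in WT. The fall of the 7 was similar in size to that of other lower genes, with a median log2 fold change of −1.47 beside −1.49 for all genes of the table that had a negative one. The median of the 25 was 1.55, beside 1.38 for all genes with a positive one.

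**Figure D4:**
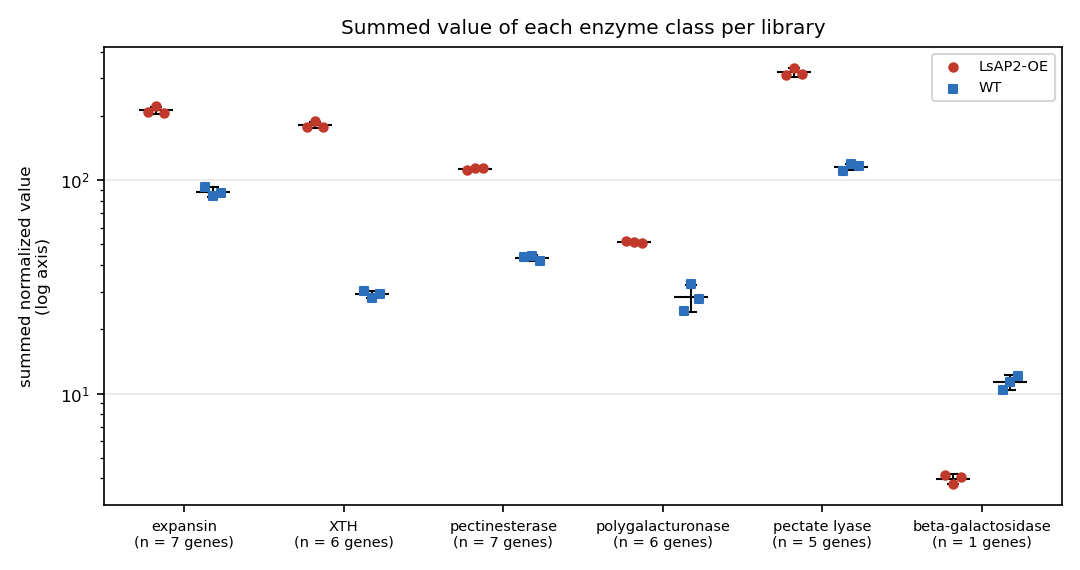
Summed normalized expression value (log axis) of each enzyme class in the 3 *LsAP2*-OE libraries (red circles) and the 3 WT libraries (blue squares), with the mean and SD in black and the number of genes under each class. The sums are higher in *LsAP2*-OE in 5 classes, with ratios of 1.82 to 6.21, and lower for the single beta-galactosidase.

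Other annotation of the 32 genes describes the same proteins as the class words, so it is not independent support for the choice. The Swiss-Prot entry of 29 of 32 (90.6%) is a precursor, as is usual for proteins that are secreted to the wall, beside 28.4% of the other described genes of the table. The NR description, from another database, held the same class word in 26 of 32 (81.3%) and a different class word in none. By NR descriptions, 27 genes of the table had a class word, and 26 of them (96.3%) were among the 32. The additional gene (Lsat_1_v5_gn_6_74421), which has no Swiss-Prot description, is a pectin acetylesterase by NR, an enzyme that removes acetyl groups from pectin. It had values of 68.2, 65.6 and 69.2 in *LsAP2*-OE, against 31.1, 36.8 and 34.9 in WT, a log2 fold change of 0.98 (limma adjusted p = 3.31e-06).

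Other wall genes are set beside the whole table, of which 59.1% was higher and 39.6% lower, with a median log2 fold change of 1.03. Of 9 genes of wall polysaccharide synthesis, 8 were higher and 1 lower, with a median of 1.17. Among the higher ones, Lactuca_sativa_newGene_3321 is cellulose synthase-like by Swiss-Prot, but NDH-dependent cyclic electron flow 5-like by NR, so its place here is uncertain. *PMT15* and *PMT17*, described as probable methyltransferases (Lsat_1_v5_gn_7_5661 and Lsat_1_v5_gn_3_15201), rose by 0.96 and 2.38, and *galacturonosyltransferase-like 10* (Lsat_1_v5_gn_4_180801) by 1.995 on the log2 scale. The one that was lower, a glucuronoxylan glucuronosyltransferase (Lsat_1_v5_gn_1_64481), had a log2 fold change of −1.26. Of 13 other wall glycosidases and lyases, 11 were higher and 2 lower, with a median of 1.41. One of the lower genes, an alpha-galactosidase (Lsat_1_v5_gn_8_152721), fell by 1.32 on the log2 scale. An alpha-L-arabinofuranosidase (Lsat_1_v5_gn_5_106761), which releases arabinose from side chains, had values of 131, 129 and 133 in *LsAP2*-OE, against 40.4, 42.7 and 41.5 in WT. A glucan endo-1,3-beta-glucosidase (Lsat_1_v5_gn_1_49441) rose by 3.47 and another (Lsat_1_v5_gn_7_95080) fell by 1.41 on the log2 scale, and enzymes of this name act on callose. An alpha-mannosidase (Lsat_1_v5_gn_4_180181), of a family that trims the sugars of glycoproteins, was listed at 0 in all WT libraries and had values of 4.01, 2.54 and 3.39 in *LsAP2*-OE.

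Structural proteins of the wall were higher in 8 of 9 cases, beside 59.1% of the table, with a median log2 fold change of 1.69, beside 1.03. Of a pair of genes for a 36.4 kDa proline-rich protein, one (Lsat_1_v5_gn_8_60981) had values of 1872, 1958 and 1842 in *LsAP2*-OE, against 587, 638 and 624 in WT. The other (Lsat_1_v5_gn_6_2901) had values of 1.39, 1.85 and 1.52 in *LsAP2*-OE, against 10.6, 8.40 and 8.61 in WT, so this pair was divided too. A gene for the proline-rich protein DC2.15 (Lsat_1_v5_gn_6_21140) had values of 933, 981 and 919 in *LsAP2*-OE, against 154, 568 and 203 in WT, with WT replicate 2 again far above the others. Its adjusted p was 0.00200 from limma and 0.0104 without WT replicate 3 (range over the alternatives 1.85e-06 to 0.0104), so the call was lost there. Another DC2.15 gene (Lactuca_sativa_newGene_2243) had values of 19.4, 105 and 38.6 in *LsAP2*-OE, against 2.79, 4.68 and 3.03 in WT.

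Expansins act in walls that proton pumps acidify, and turgor depends on water and potassium uptake. Of 17 genes matched by such words, 14 were higher and 3 lower, beside 59.1% and 39.6% of the table, and their median log2 fold change of 1.17 was close to the 1.03 of the table. A *Plasma membrane ATPase 4* gene (Lsat_1_v5_gn_8_68180), a proton pump, had values of 144, 142 and 140.2 in *LsAP2*-OE, against 66.4, 71.3 and 66.6 in WT. The vacuolar aquaporin *TIP2-1* (Lsat_1_v5_gn_5_134601) had values of 531, 570.2 and 557 in *LsAP2*-OE, against 261, 265 and 263 in WT. *TIP1-1* (Lsat_1_v5_gn_1_51360) had values of 1.35, 1.30 and 1.49 in *LsAP2*-OE, against 0.049, 0.041 and 0 in WT, and a *TIP2-3* gene (Lsat_1_v5_gn_6_91860) had 1.17, 1.45 and 1.14 in *LsAP2*-OE and was listed at 0 in all WT libraries. The genes that fell were a pair of inorganic pyrophosphatases (Lsat_1_v5_gn_4_95701 and Lsat_1_v5_gn_6_11381) and an aquaporin *PIP2-2* gene (Lsat_1_v5_gn_2_109001). Neither pyrophosphatase is described as a proton pump, and the second is described as soluble.

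Markers of other cell types were looked for in the same table, from which markers that did not change are absent. Their counts stand beside 59.1% higher and 39.6% lower over the whole table. Of 90 genes of dividing cells in the table, most of them histones, 89 were lower, and their summed value was 15992 to 16687 in *LsAP2*-OE libraries and 42688 to 56518 in WT libraries. The exception is an RNA-directed DNA polymerase homolog, matched by its words. All 15 xylem markers, most of them laccases, were higher, with sums of 78.7 to 83.2 in *LsAP2*-OE and 30.9 to 37.6 in WT. Of these, 2 are also counted above, a cellulose synthase A catalytic subunit gene (Lsat_1_v5_gn_8_63861) under polysaccharide synthesis and a fasciclin-like arabinogalactan protein gene (Lsat_1_v5_gn_6_46781) under structural proteins. Phloem markers were higher in 6 of 7 cases, with sums of 180.3 to 195 in *LsAP2*-OE and 90.9 to 106 in WT. The sucrose transporter gene *SUC2* (Lsat_1_v5_gn_1_6801) alone gave 68.8% of the sum in *LsAP2*-OE and 63.2% in WT. The gene that fell was *CLE25* (Lsat_1_v5_gn_0_35980). Sugar transporters named SWEET were matched by family name, so the place of each among phloem markers is uncertain. The 3 markers of guard cells and the stomatal lineage, 2 described as *TOO MANY MOUTHS* and 1 as *FAMA*, were 1 higher and 2 lower. Their sums were 6.73 to 7.54 in *LsAP2*-OE and 17.2 to 19.4 in WT. A single *TOO MANY MOUTHS* gene (Lsat_1_v5_gn_3_36141) gave 20.6% of the sum in *LsAP2*-OE and 72.3% in WT. The fall of the sum therefore does not stand for each of the 3 markers. The part of cell type shares in the changes of the wall genes was not tested.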

How the data were processed

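Total RNA of young leaves was made into libraries with a NEBNext Ultra kit and sequenced on an Illumina NovaSeq instrument. On BMKCloud, the authors used HISAT2 for alignment to a lettuce genome and DESeq for the calls, and both tools, with HISAT, are named in the submitters' processing notes. Neither source gives tool versions, the genome build or the program that quantified genes. The authors' signal in the deposited table is 1 normalized expression value per gene and library. Of the low values, a share of 0.018 (WT replicate 1) to 0.5 (*LsAP2*-OE replicate 1) lay at whole multiples of the library's smallest value. The smallest value is itself counted in this share. No common step was thus established, and reads were not recovered. The table's columns of the authors' own FDR, fold change and direction were not used.

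The comparison across all genes was made by limma 3.58.1 (R 4.3.3) on log2(value + 0.1), unfiltered, allowing for a mean-variance trend and using no replicate block. This scale understates the change of low genes. P-values rest on the spread between the 3 libraries of a group, which the paper calls biological replicates. For each gene, limma draws this spread toward the trend over all listed genes. As these genes were selected as different between the same libraries, their spread may be understated, which was not tested. With 3 against 3, an exact permutation test cannot give a p below 0.1, so none was run. Sums over genes were given no test. Tables were handled with pandas 2.3.3 and numpy 2.4.6 in Python 3.11.15. The procedure was tested on simulated data in which most genes did not differ between the groups, unlike in this table. That test therefore does not check the calls made here.

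Members and lists were chosen by words in Swiss-Prot descriptions, which 1949 genes carry, with earlier results of these data known. The other lists were wall polysaccharide synthesis, other glycosidases and lyases, wall structural proteins, acid growth and turgor, dividing cells, xylem, phloem, and guard cells with the stomatal lineage. The rule for named genes took every lower member, every member of classes of 4 or fewer, otherwise the 2 with the largest change in each direction and the 2 with the highest mean value, the 3 with the largest adjusted p, and of each other wall list 2 by fold change and 2 by mean value. The other members, the pectin acetylesterase, the lower genes of the other wall lists that this rule does not pick, the xylem markers and the Rubisco gene were named after their values were seen. So were the cellulose synthase-like gene and the phloem and stomatal lineage genes. Alternatives were pseudocounts of 1 and 0.01, a filter at a mean value of 1, no trend, the block, centring within groups, an adjusted p below 0.05, a fold change of at least 2, NR descriptions and each library left out. No gene ID matched the RefSeq gene table (0 matches), so no coordinates or sequences are given.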

Additional observations from a re-analysis of the deposited data

How the results depend on the processing

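No member changed direction, and each member tested kept its call under every pseudocount, trend, filter, centring, block and left-out library. Where a 2-fold difference was also required, 23 were higher, without *Expansin-B15* (Lsat_1_v5_gn_8_10000) and *XTH6* (Lsat_1_v5_gn_4_159341), and 7 lower. A filter at a mean value of at least 1 left 24 members, of which 4 were lower in place of 7. Among them, 3 XTHs were higher and 0 lower (5 and 1 without the filter), and 1 pectinesterase was lower in place of 3, because the other genes were not tested. With classes from NR descriptions, 3 pectate lyases were higher in place of 5. Without the gene of highest mean value, the log2 ratio of summed values was 0.96 for expansins, 1.57 for XTHs and 0.71 for pectinesterases. Replicate number as a block gave 25 higher and 7 lower members, as without it. Deviations of same-numbered libraries correlated at −0.014, −0.039 and 0.014. No pairing by number was thus seen, though 3 libraries per group cannot exclude one. *LsAP2*-OE replicate 1 correlated best with WT replicate 2, at 0.023, and the largest value was 0.039, for *LsAP2*-OE replicate 2 with WT replicate 1. The depth of the libraries is unknown. The 8 members with a mean value under 1 have fold changes that rest on the pseudocount. A mean value of at least 1 does not remove this limit. The *XTH32* gene Lsat_1_v5_gn_6_44180 had a mean value of 3.19 but was close to 0 in WT, and its fold change rests on the pseudocount too.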
